A study of Homo sapiens with 14 samples.

Results

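DNA damage repair and checkpoint genes keep the genome readable: some of their products cut back, copy or join damaged DNA, and others hold the cell cycle until that work is done. A list of 42 such genes was examined, chosen by gene symbol from knowledge of these pathways and with earlier results of these data known. The shares of members called below may in part reflect that choice. Of the 42 genes, 35 had a probe named by the platform annotation. All 35 passed the detection filter and were tested among 11983 genes. FANCA, FANCC, FANCD2, FANCM, BRCA2, RAD50 and CLSPN were not analysed here. The tested genes comprised 15 of homologous recombination, 6 of the Fanconi anaemia pathway, 3 of mismatch repair and uracil excision, 4 of end joining and 7 of checkpoint signalling.

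The data came from 14 Illumina BeadChip arrays of total RNA from 2 human prostate cancer cell lines. LNCaP is an androgen-responsive line grown in medium with 10% fetal bovine serum. LNCaP-abl is its derivative adapted to low androgen, and was grown in phenol-red free medium with 10% charcoal-stripped serum, so that line and medium cannot be told apart. Per line, cells exposed to 50 µM dilazep for 48 h were hybridised on 3 arrays, and control cells on 4, of which 2 had received H2O and 2 DMSO. Dilazep is a vasodilator that blocks the cellular uptake of adenosine, and the title of the study places it in work against the transcription factor GATA2. For the control arrays the treatment text mentions bufalin, another compound, so whether the controls and the dilazep cells belong to the same experiment cannot be told. The labels do not say which vehicle goes with dilazep, and both were used with equal weight. The labels do not state whether replicates came from separate cultures, and p-values therefore reflect no more than the scatter among these samples, possibly a technical one.

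Homologous recombination repairs a break by copying an intact sister strand: the end is resected, BRCA1 and BRCA2 help to prepare it for strand invasion, and helicases and nucleases then resolve the joined strands. The Fanconi anaemia proteins detect a crosslink between the strands and mark the stalled site with ubiquitin, while end joining ligates broken ends directly. ATR and ATM are kinases that sense damaged or stalled DNA and act through CHEK1 and CHEK2 to delay division. Many genes of the recombination and Fanconi pathways are known to be transcribed most in dividing cells, and E2F proteins are known regulators of such genes.

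Promoter sequences were read for the tested members from RefSeq (build GRCh38.p14), as windows of 300 bases that run from 250 bases before to 50 after an annotated transcript start. Of the 35 members, 30 had such a window. An E2F motif (TTTCGCGC, TTTGGCGC, TTTCCCGC or TTTGCCGC, on either strand) lay in a window of 9 of these 30 members (30.0%), against 3.99% of the 27305 genes with a window. CCAAT lay in a window of 20 members (66.7%, against 39.72% of all genes), and a CHR motif (TTTGAA or TTCGAA) in that of 3 members (10.0%, against 19.54%). Both strands were read for every motif, and overlapping matches were each counted. A gene could have more than 1 window: the 30 members had 48, and the 27305 genes had 35116. The shares of all genes are over every gene with a window, not over the 11983 genes tested on the arrays. The 9 genes with an E2F match were EXO1, TIPIN, UNG, RMI1, MSH6, TOPBP1, XRCC6, PMS2 and XRCC2. By the response of LNCaP-abl described below, 7 of the 23 members that fell there and had a window held a match, and so did 2 of the 7 others. The 3 genes with the largest falls in LNCaP-abl among those with a match are printed with XRCC2, which carried a match and was not called lower in either line. Capitals mark the E2F matches. The EXO1 window is chr1:241847954-241848253 on the plus strand, with its match 4 bases after the start. The TIPIN window is chr15:66356636-66356935 on the minus strand, with 2 overlapping matches whose first bases lie at -66 and -62. The UNG window is chr12:109097922-109098221 on the plus strand, with a match at -63. The XRCC2 window is chr7:152676092-152676391 on the minus strand, with a match in reverse complement at 21.
EXO1: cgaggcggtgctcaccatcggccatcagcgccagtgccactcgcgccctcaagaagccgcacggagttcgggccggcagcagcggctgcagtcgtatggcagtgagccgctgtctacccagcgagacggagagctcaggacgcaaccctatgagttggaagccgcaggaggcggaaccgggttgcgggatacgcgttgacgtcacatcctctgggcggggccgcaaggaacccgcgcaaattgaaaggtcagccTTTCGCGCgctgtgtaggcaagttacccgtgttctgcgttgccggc
TIPIN: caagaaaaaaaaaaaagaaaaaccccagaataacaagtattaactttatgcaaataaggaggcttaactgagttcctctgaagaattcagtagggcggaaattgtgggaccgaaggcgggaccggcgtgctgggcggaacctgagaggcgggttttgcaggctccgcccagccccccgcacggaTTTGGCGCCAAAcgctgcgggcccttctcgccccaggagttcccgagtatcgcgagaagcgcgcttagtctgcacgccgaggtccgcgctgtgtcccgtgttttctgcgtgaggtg
UNG: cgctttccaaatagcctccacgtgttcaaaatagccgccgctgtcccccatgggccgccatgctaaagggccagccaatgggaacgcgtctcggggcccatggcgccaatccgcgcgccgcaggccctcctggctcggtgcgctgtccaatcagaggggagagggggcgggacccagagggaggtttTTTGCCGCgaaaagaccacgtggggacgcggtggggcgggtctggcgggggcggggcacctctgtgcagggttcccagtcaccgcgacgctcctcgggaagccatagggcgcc
XRCC2: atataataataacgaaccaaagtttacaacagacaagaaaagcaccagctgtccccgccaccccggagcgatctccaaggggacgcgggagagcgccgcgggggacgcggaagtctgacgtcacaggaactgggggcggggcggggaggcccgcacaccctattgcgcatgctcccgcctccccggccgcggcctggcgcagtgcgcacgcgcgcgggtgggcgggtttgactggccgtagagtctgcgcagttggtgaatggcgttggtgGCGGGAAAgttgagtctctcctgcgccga

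**Figure D1:**
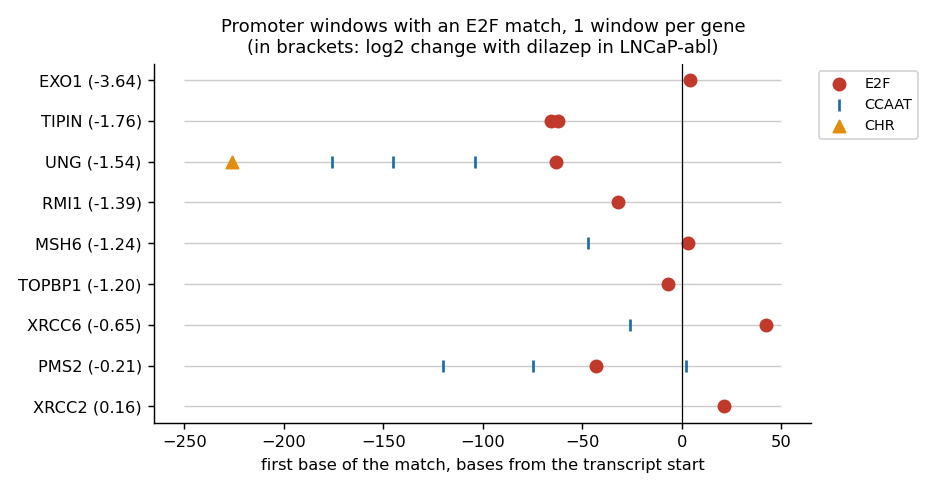
Motif matches in the promoter windows of the 9 members with an E2F match, 1 window per gene, ordered by the log2 change with dilazep in LNCaP-abl given in brackets. The x axis is the first base of each match in bases from the transcript start (line at 0). Circles are E2F, vertical ticks CCAAT and triangles CHR. The E2F matches lay between -66 and 42 bases from the start, in 7 genes that fell in LNCaP-abl and in PMS2 and XRCC2, which were not called there.

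Levels below are background-corrected, quantile-normalised intensities on a log2 scale, and a change is the mean of the 3 dilazep arrays minus that of the controls, with H2O and DMSO weighted equally, so that a negative change is a lower level with dilazep. A gene was called where limma's adjusted p was under 0.05 (Benjamini-Hochberg over all 11983 genes). A level counted as above background where the detection p-value of the array was under 0.05.

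In LNCaP-abl, 27 of the 35 members fell with dilazep (77.1%), ATM alone rose, and 7 were not called. Of all genes tested, 23.3% fell and 27.2% rose there. In LNCaP, 19 members fell (54.3%), BARD1, XRCC2 and ATR rose, and 13 were not called, against 19.7% of all genes lower and 24.2% higher. The median change of the members was -1.32 in LNCaP-abl and -0.42 in LNCaP, while the median of all genes was 0.04 in each line. A fall of 1 or more on the log2 scale was called for 22 members in LNCaP-abl (62.9%, against 6.49% of all genes) and for 6 in LNCaP (17.1%, against 3.52%). Members whose 3 dilazep arrays all lay below the 4 control arrays numbered 27 in LNCaP-abl (77.1%) and 18 in LNCaP (51.4%), against 24.5% and 21% of all genes. All 3 lay above the controls for 3 members in LNCaP-abl (8.57%, against 28.5% of all genes), which were ATM, NBN and LIG4. In LNCaP this held for 2 (5.71%, against 26%), BARD1 and XRCC2.

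The response differed between the lines for 25 members when the difference itself was tested. The change was lower in LNCaP-abl than in LNCaP for 24 of them (68.6%, against 17.9% of all genes) and higher for ATM (15.9% of all genes were higher). The median difference of the members was -1.0, against -0.02 over all genes. This contrast uses the same arrays as the changes in each line and adds no independent evidence to them. Both lines shared 18 members that fell, 8 fell and passed the threshold in LNCaP-abl alone, PMS2 passed it in LNCaP alone, and BARD1 rose in LNCaP and fell in LNCaP-abl. How many of all genes fell in both lines, or in one line alone, was not counted.

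The size of the changes depended on how background was treated, most of all for genes that came close to it. In LNCaP-abl, without background correction the change was -2.91 for RAD51AP1, -2.66 for FANCI, -1.90 for BRCA1, -1.75 for CHEK1, -1.73 for EXO1, -1.72 for FANCG, -1.48 for XRCC3, -1.43 for RAD54L, -1.02 for RAD54B, -0.906 for BLM, -0.584 for FANCB, -0.561 for MRE11, -0.215 for FANCF and -0.196 for FANCL. With the authors' processed values it was -2.40 for RAD51AP1, -2.18 for FANCI, -1.47 for BRCA1, -1.34 for CHEK2, -1.29 for CHEK1 and for FANCG, -1.18 for EXO1, -1.13 for XRCC3, -0.983 for RAD54L and -0.981 for TIPIN. The processed values also gave -0.752 for BARD1, -0.719 for RAD54B, -0.527 for BLM, -0.462 for FANCE, -0.366 for MRE11, -0.347 for FANCB, -0.135 for FANCL and -0.122 for FANCF there. These are all the members called lower in LNCaP-abl whose change moved by more than 1.5 times under the setting named, and each was still called lower there, so direction and call were kept while the fold was smaller than the one given below. In LNCaP, without background correction the change was -0.49 for FANCB, -0.442 for MRE11, -0.359 for RAD54B, -0.343 for EXO1, -0.266 for BLM and 0.238 for ATR. With the processed values it was -0.707 for CHEK1, -0.638 for FANCG, -0.329 for TIPIN, -0.305 for FANCB, -0.299 for MRE11, -0.266 for EXO1, -0.259 for RAD54B, -0.232 for RAD54L, -0.159 for BLM and 0.14 for ATR. Those calls in LNCaP were kept, while that of FANCF was lost under both settings.

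**Figure D2:**
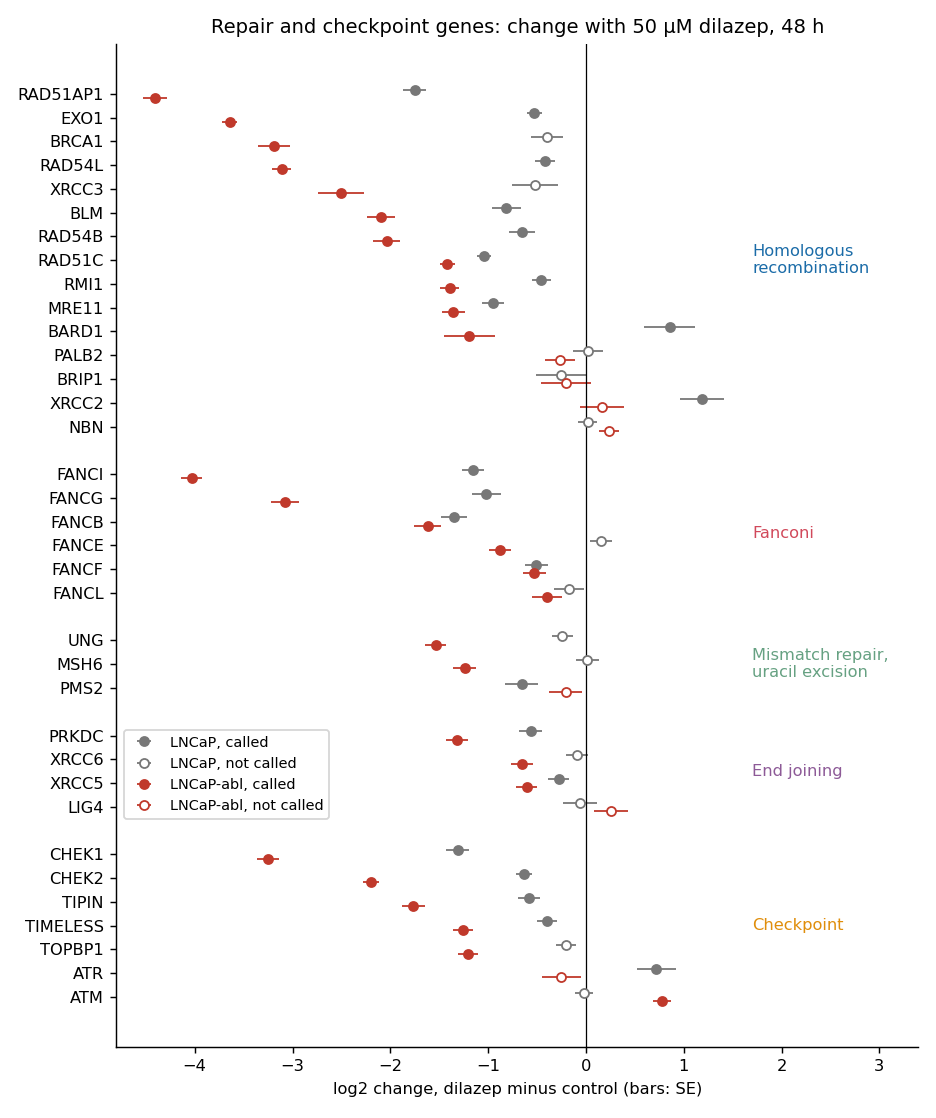
Log2 change with 50 µM dilazep at 48 h for the 35 members, grouped by pathway, in LNCaP (grey) and LNCaP-abl (red). Points are mean differences of 3 dilazep and 4 control arrays, bars are the standard error, and open points were not called. The red points lie left of the grey ones for most members, RAD51AP1 at -4.40 and FANCI at -4.03 lying lowest.

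Genes that mark dividing cells moved with these changes. Of 15 proliferation markers 14 were tested, and 13 of the 14 fell in LNCaP (all but MKI67), with a median change of -1.24. All 14 fell in LNCaP-abl, with a median of -3.41, and 13 fell further there than in LNCaP. Their summed normalised level was 17310 to 18580 in LNCaP controls and 7562 to 8136 with dilazep. In LNCaP-abl it was 18470 to 20150 in controls and 2447 to 2627 with dilazep, where 10 of the 14 were above background on some array. Since each array holds the RNA of a whole culture, fewer cells that express a gene and less of its RNA per cell cannot be told apart. The part of cell division in the changes of the repair genes was not tested.

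Vehicle had no called effect on any gene: DMSO against H2O, averaged over both lines, gave 0% of genes lower and 0% higher by limma. At an unadjusted p under 0.05 it gave 532 of the 11983 genes and 2 of the 35 members (508 and 2 with limma's trended variance, which also called 0). Of 12 luminal prostate markers 10 were tested. All 10 were above background on some array of every group but LNCaP-abl with dilazep, where 9 were. Of the markers of other cell types, VIM and FN1 of 7 for basal or mesenchymal cells, COL1A1 of 7 for fibroblasts, VWF of 5 for endothelium, and CD68, LYZ and ITGAM of 7 for immune cells were tested. VIM (0.16), FN1 (-0.19) and COL1A1 (-0.39) were not called in LNCaP. In LNCaP-abl VIM rose (0.25, adjusted p = 0.0341), FN1 fell (-0.84, adjusted p = 5.83e-05) and COL1A1 was not called (-0.08). Of the immune genes, CD68 rose (1.01, adjusted p = 0.000886), LYZ fell (-0.58, adjusted p = 0.00259) and ITGAM was not called (0.00) in LNCaP, with a median of 0.00. In LNCaP-abl CD68 rose (0.54, adjusted p = 0.0273), and LYZ (0.09) and ITGAM (0.03) were not called. The summed level of these 3 genes was 557.1 to 592.1 in LNCaP controls and 849.7 to 1346 with dilazep, and 584.7 to 910 in LNCaP-abl controls and 1029 to 1146 with dilazep. VWF was at 322.3 to 397 in LNCaP controls and 89.1 to 112 with dilazep, and at 51.9 to 61.4 and 24.1 to 39.9 in LNCaP-abl. The part of these genes in the results was not tested. No pair of arrays held identical values, and between 37.9% and 42% of probes were above background on each array.

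Among the recombination genes, 11 of 15 fell in LNCaP-abl (73.3%, against 23.3% of all genes, median -1.42). In LNCaP 8 fell (53.3%, against 19.7% of all genes) and 2 rose (13.3%, against 24.2%), with a median of -0.46. RAD51AP1, which stimulates strand pairing, had the lowest change of all members in both lines. In LNCaP, RAD51AP1 stood at 10.05 and 10.08 with H2O, at 10.05 and 9.96 with DMSO, and at 8.53, 8.27 and 8.04 with dilazep. In LNCaP-abl, RAD51AP1 stood at 10.27 and 10.35 with H2O, at 10.25 and 10.20 with DMSO, and at 6.0, 5.96 and 5.63 with dilazep. Controls of both lines were close together and every dilazep array was below them, with those of LNCaP-abl lowest. RAD51AP1 fell by 4.40 (SE 0.12, adjusted p = 8.4e-11) in LNCaP-abl, a 21.2-fold fall, and by 1.75 (SE 0.12, adjusted p = 9e-07) in LNCaP, a 3.37-fold fall. The difference between the lines was -2.65 (SE 0.17, adjusted p = 6.98e-07).

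EXO1, the exonuclease that extends resected ends, was below background in LNCaP-abl with dilazep. In LNCaP, EXO1 read 8.23 and 8.08 with H2O, 8.02 and 8.07 with DMSO, and 7.59, 7.55 and 7.58 with dilazep. In LNCaP-abl, EXO1 read 8.25 and 8.12 with H2O, 8.42 and 8.39 with DMSO, and 4.62, 4.65 and 4.68 with dilazep. The 3 low arrays of LNCaP-abl were not above background. On the background-corrected scale the gene was therefore at least 7.68-fold lower there (adjusted p = 2.29e-11 for the fitted change). The bound holds for that scale only: the log2 change was -1.73 without background correction and -1.18 with the processed values. EXO1 fell by 0.53 (SE 0.08, adjusted p = 0.000191) in LNCaP. The fitted difference between the lines, -3.12, rests on those 3 arrays below background and is not a measured size: it was -1.38 without background correction, -0.913 with the processed values and -1.89 with the mean of the probes, and was called under each. A dimmer second probe of EXO1, above background on 8 of the 14 arrays, fell by 1.33 in LNCaP-abl and by 0.66 in LNCaP.

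RAD54L is a motor protein that remodels DNA during strand invasion, and RAD54B is its relative. In LNCaP, RAD54L was at 8.20 and 8.33 with H2O, at 8.32 and 8.39 with DMSO, and at 7.85, 7.97 and 7.86 with dilazep. In LNCaP-abl, RAD54L was at 8.15 and 8.13 with H2O, at 8.14 and 8.07 with DMSO, and at 5.12, 5.13 and 4.78 with dilazep. The last 3 values were not above background. On the background-corrected scale RAD54L was at least 6.84-fold lower in LNCaP-abl (adjusted p = 2.07e-10). Its log2 change there was -1.43 without background correction and -0.983 with the processed values. RAD54L fell by 0.42 (SE 0.10, adjusted p = 0.00481) in LNCaP. RAD54B went from 7.31, 7.92, 7.33 and 7.45 in LNCaP controls to 6.86, 6.87 and 6.82 with dilazep. In LNCaP-abl RAD54B went from 7.93, 7.95, 8.06 and 7.92 to 5.70, 6.08 and 6.0, and groups did not overlap in either line. RAD54B fell by 2.04 (SE 0.14, adjusted p = 1.61e-07) in LNCaP-abl and by 0.65 (SE 0.14, adjusted p = 0.00231) in LNCaP.

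BRCA1, the ubiquitin ligase subunit at the head of the pathway, and BARD1, its binding partner, act as a pair. In LNCaP, BRCA1 gave 8.41 and 8.42 with H2O, 8.49 and 8.03 with DMSO, and 7.94, 7.81 and 8.07 with dilazep, so that the ranges overlapped. In LNCaP-abl, BRCA1 gave 9.33 and 9.15 with H2O, 8.77 and 9.32 with DMSO, and 5.78, 5.81 and 6.25 with dilazep. BRCA1 fell by 3.19 (SE 0.16, adjusted p = 1.41e-08) in LNCaP-abl, a 9.14-fold fall that left every array above background. In LNCaP the change was -0.40 (95% interval -0.76 to -0.04, adjusted p = 0.0681), and a second probe of BRCA1 was called there at -0.54 (adjusted p = 0.0189 over probes) and gave -3.74 in LNCaP-abl.

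BARD1 took opposite directions in the lines. In LNCaP, BARD1 gave 8.33 and 8.56 with H2O, 8.39 and 8.22 with DMSO, and 8.84, 8.81 and 10.03 with dilazep. In LNCaP-abl, BARD1 gave 9.32 and 9.09 with H2O, 8.64 and 9.30 with DMSO, and 7.87, 7.82 and 8.00 with dilazep. All dilazep arrays lay above the controls in LNCaP and below them in LNCaP-abl, and replicate 4 of LNCaP was far above the other dilazep arrays. BARD1 rose by 0.86 (SE 0.26, adjusted p = 0.0193) in LNCaP and fell by 1.19 (SE 0.26, adjusted p = 0.00222) in LNCaP-abl, a difference of -2.05 (adjusted p = 0.00148). Without replicate 4 the change in LNCaP was 0.45 (adjusted p = 0.0518). The call in LNCaP was also lost without H2O replicate 1 (adjusted p = 0.0577) or DMSO replicate 3 (adjusted p = 0.0527) and with H2O arrays alone as control (adjusted p = 0.0673), while the fall in LNCaP-abl was kept under all alternatives tried.

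XRCC2 and XRCC3 assist strand invasion at breaks. In LNCaP, XRCC2 gave 10.39 and 10.28 with H2O, 10.33 and 9.93 with DMSO, and 10.97, 11.24 and 12.05 with dilazep. In LNCaP-abl, XRCC2 gave 10.38 and 10.20 with H2O, 9.78 and 10.39 with DMSO, and 10.43, 10.28 and 10.34 with dilazep. The dilazep arrays of LNCaP were above all others, replicate 4 again highest, and those of LNCaP-abl lay within or just above their controls. XRCC2 rose by 1.19 (SE 0.23, adjusted p = 0.00125) in LNCaP, and by 0.87 without replicate 4 (adjusted p = 0.00256). In LNCaP-abl its change was 0.16 (95% interval -0.33 to 0.66). The difference between the lines was -1.02 (adjusted p = 0.0282), and its call was lost when any of LNCaP H2O replicate 3 (adjusted p = 0.0534), LNCaP DMSO replicate 3 (0.0632), LNCaP-abl H2O replicate 2 (0.0572), LNCaP-abl DMSO replicate 3 (0.0626), LNCaP-abl dilazep replicate 2 (0.0588) or LNCaP-abl dilazep replicate 3 (0.0536) was left out. It was also lost with H2O (adjusted p = 0.0684) or DMSO (0.0721) alone as control.

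XRCC3 went from 8.83, 8.86, 8.96 and 8.89 in LNCaP controls to 8.22, 8.47 and 8.39, a change of -0.52 that was not called (adjusted p = 0.0931), although every dilazep array was lower. In LNCaP-abl XRCC3 went from 8.99, 8.69, 8.78 and 8.82 to 7.06, 6.20 and 5.71, the widest spread of the 35 members across the dilazep arrays of that line. There XRCC3 fell by 2.50 (SE 0.24, adjusted p = 2.94e-06). RAD51C, which forms a complex with XRCC3, fell in both lines, by 1.42 in LNCaP-abl and 1.04 in LNCaP. Both other probes of RAD51C were called in both lines too. The difference of RAD51C between lines, -0.37 (adjusted p = 0.0197), was lost without LNCaP dilazep replicate 2 (adjusted p = 0.055) and with H2O (0.0518) or DMSO (0.0537) alone as control.

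BLM is the helicase that dissolves joined strands together with RMI1. BLM went from 6.34, 6.19, 6.22 and 5.61 in LNCaP controls to 5.14, 5.21 and 5.49, of which the last was above background. In LNCaP-abl BLM went from 6.55, 6.20, 6.77 and 6.69 to 4.47, 4.41 and 4.48, none of them above background. On the background-corrected scale BLM was thus at least 2.30-fold lower in LNCaP-abl (adjusted p = 2.19e-07). Its log2 change there was -0.906 without background correction and -0.527 with the processed values. BLM fell by 0.81 (SE 0.15, adjusted p = 0.000844) in LNCaP, where the processed values gave -0.159. RMI1 fell by 1.39 in LNCaP-abl and 0.46 in LNCaP, while its second probe gave -1.06 and -1.37, the reverse order. The difference between the lines for RMI1, -0.94 (adjusted p = 0.000388), was therefore not seen in that probe (0.31, adjusted p = 0.389).

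MRE11, the nuclease that begins resection, fell by 1.35 (SE 0.11, adjusted p = 1.14e-06) in LNCaP-abl and by 0.95 (SE 0.11, adjusted p = 5.31e-05) in LNCaP, and by 0.366 and 0.299 with the processed values. Its other probes were called lower in LNCaP (-0.62 and -0.74) and not in LNCaP-abl (-0.51 and -0.24). NBN, which tethers MRE11 at breaks, was not called in either line on its brightest probe (0.02 in LNCaP, 0.24 in LNCaP-abl). A second probe of NBN rose in both, by 0.92 (adjusted p = 0.000299 over probes) and 0.38 (adjusted p = 0.0478). PALB2, the bridge from BRCA1 to BRCA2, changed by 0.02 (95% interval -0.32 to 0.36) in LNCaP and by -0.27 (-0.61 to 0.07) in LNCaP-abl. BRIP1, a helicase bound by BRCA1, was near background and changed by -0.26 (-0.82 to 0.30) and -0.20 (-0.76 to 0.36).

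**Figure D3:**
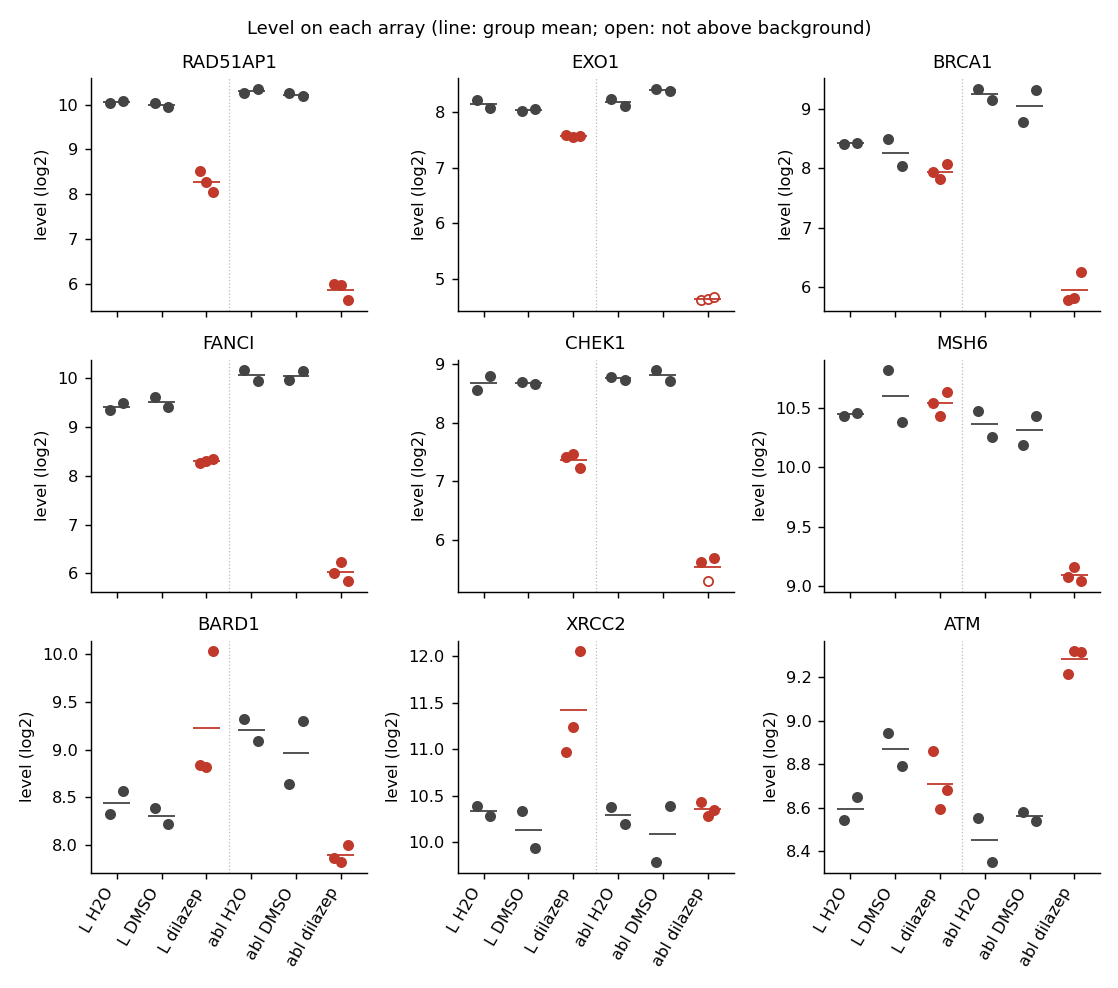
Normalised log2 level of 9 members on each of the 14 arrays, with dilazep in red, controls in dark grey, the group mean as a line and open points not above background. L stands for LNCaP and abl for LNCaP-abl; the y axes differ between panels and do not start at 0. RAD51AP1, EXO1, BRCA1, FANCI, CHEK1 and MSH6 were lowest in LNCaP-abl with dilazep, BARD1 and XRCC2 were highest on replicate 4 of LNCaP with dilazep, and ATM was highest in LNCaP-abl with dilazep.

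All 6 Fanconi genes tested were called lower in LNCaP-abl (100%, against 23.3% of all genes, median -1.25). In LNCaP 4 of 6 were (66.7%, against 19.7% of all genes, median -0.76). Of these calls in LNCaP-abl, that of FANCF lay near background and that of FANCL was lost under several alternatives. FANCI is a subunit of the complex that receives the ubiquitin mark. In LNCaP, FANCI measured 9.36 and 9.49 with H2O, 9.61 and 9.42 with DMSO, and 8.27, 8.32 and 8.35 with dilazep. In LNCaP-abl, FANCI measured 10.17 and 9.95 with H2O, 9.96 and 10.14 with DMSO, and 6.0, 6.24 and 5.84 with dilazep. Replicates were tight, the controls were higher in LNCaP-abl and the dilazep arrays lower. FANCI fell by 4.03 (SE 0.11, adjusted p = 7.87e-11) in LNCaP-abl, a 16.4-fold fall, and by 1.16 (SE 0.11, adjusted p = 9.8e-06) in LNCaP, a difference of -2.87 (adjusted p = 1.64e-07).

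FANCG, FANCB, FANCE, FANCF and FANCL belong to the core complex, the ligase machinery, of which FANCL is the catalytic subunit. FANCG went from 9.07, 9.03, 9.03 and 8.93 in LNCaP controls to 8.03, 8.01 and 7.95 with dilazep. In LNCaP-abl FANCG went from 8.89, 8.96, 8.61 and 8.91 to 5.55, 5.55 and 6.19. FANCG fell by 3.08 (SE 0.14, adjusted p = 6.65e-09) in LNCaP-abl and by 1.02 (SE 0.14, adjusted p = 0.000178) in LNCaP, with no overlap in either.

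FANCB went from 6.75, 6.81, 6.78 and 6.54 in LNCaP controls to 5.52, 5.26 and 5.33, the first of which was above background. In LNCaP-abl FANCB went from 6.47, 6.22, 6.75 and 6.24 to 4.89, 4.60 and 4.90, all below background. On the background-corrected scale FANCB was at least 2.10-fold lower in LNCaP-abl (adjusted p = 1.2e-06). Its log2 change there was -0.584 without background correction and -0.347 with the processed values. FANCB fell by 1.35 (SE 0.14, adjusted p = 1.56e-05) in LNCaP. In that line the change was -0.49 without background correction, -0.305 with the processed values and -0.781 with the mean of the probes. No difference between the lines was called on this probe (-0.27, 95% interval -0.69 to 0.15). That value and its interval rest on dilazep arrays below background and are not a measured size. The second probe gave -0.21, not called, in LNCaP and -1.30 in LNCaP-abl, and called the difference (-1.09, adjusted p = 0.00239 over probes).

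FANCE fell by 0.88 (SE 0.11, adjusted p = 3.49e-05) in LNCaP-abl, while its change in LNCaP was 0.15 (95% interval -0.09 to 0.40), and the difference of -1.03 was called (adjusted p = 0.000488). FANCF was called at -0.51 in LNCaP (adjusted p = 0.00501), a call lost without background correction (-0.159, adjusted p = 0.0595) and with the processed values (-0.0944, adjusted p = 0.0824). In LNCaP-abl it was called at -0.53 (adjusted p = 0.00301), but 1 of 4 control arrays and no dilazep array were above background, so no fold is given. FANCL was called at -0.40 (adjusted p = 0.0435) in LNCaP-abl and not in LNCaP (-0.17), with no difference called between the lines (-0.23, 95% interval -0.69 to 0.24). The call was lost without H2O replicate 3 (adjusted p = 0.118), DMSO replicate 1 (0.0978), DMSO replicate 3 (0.0648), dilazep replicate 2 (0.122) or dilazep replicate 3 (0.122) of LNCaP-abl. It was also lost with H2O (adjusted p = 0.152) or DMSO (0.0565) alone as control, with a trended variance (0.0522) and when adjusted over probes (0.0642).

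Of the 3 mismatch repair and uracil excision genes, UNG and MSH6 fell in LNCaP-abl (66.7%, against 23.3% of all genes) and PMS2 in LNCaP (33.3%, against 19.7%). UNG, the glycosylase that removes uracil from DNA, went from 10.48, 10.71, 10.66 and 10.80 in LNCaP controls to 10.25, 10.60 and 10.42. In LNCaP-abl UNG went from 10.50, 10.38, 10.44 and 10.53 to 8.83, 9.01 and 8.93. The LNCaP groups overlapped (-0.24, adjusted p = 0.0842) and those of LNCaP-abl were far apart, where UNG fell by 1.54 (SE 0.10, adjusted p = 1.77e-07). A second probe of UNG was called in neither line (-0.51 and -0.38).

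MSH6, which recognises mispaired bases, fell by 1.24 (SE 0.12, adjusted p = 2.84e-06) in LNCaP-abl. Its change in LNCaP was 0.01 (95% interval -0.24 to 0.27), and the difference of -1.25 was called (adjusted p = 0.000166). PMS2, the nuclease subunit of the same pathway, was called at -0.66 (SE 0.17, adjusted p = 0.00778) in LNCaP and changed by -0.21 (95% interval -0.58 to 0.16) in LNCaP-abl, and the difference between the lines was not called (0.45, 95% interval -0.07 to 0.97). Its second probe was called in neither line (0.01 and 0.23), and the call in LNCaP was lost with the mean of the probes (-0.321, adjusted p = 0.132) and with DMSO alone as control (adjusted p = 0.0548). The genome holds near-identical copies of PMS2, whose signal a probe could share, so the values of PMS2 are uncertain.

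Of the 4 end-joining genes, PRKDC, XRCC5 and XRCC6 fell in LNCaP-abl (75%, against 23.3% of all genes), and PRKDC and XRCC5 in LNCaP (50%, against 19.7%). PRKDC is the catalytic subunit of the DNA-dependent protein kinase. In LNCaP, PRKDC gave 9.01 and 8.90 with H2O, 9.43 and 9.00 with DMSO, and 8.62, 8.49 and 8.45 with dilazep. In LNCaP-abl, PRKDC gave 9.41 and 9.60 with H2O, 9.26 and 9.43 with DMSO, and 7.99, 8.22 and 8.13 with dilazep. Its groups did not overlap in either line, and PRKDC fell by 1.32 (SE 0.12, adjusted p = 1.63e-06) in LNCaP-abl and by 0.57 (SE 0.12, adjusted p = 0.00194) in LNCaP. The 3 other probes of PRKDC fell by 0.50, 0.51 and 0.58 in LNCaP-abl. In LNCaP they gave 0.34, not called, -0.78 and -0.79, and 1 of the 3 called a difference between the lines.

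XRCC5 and XRCC6 encode the Ku proteins that cap broken ends. XRCC6 fell by 0.65 (SE 0.11, adjusted p = 0.000393) in LNCaP-abl and changed by -0.09 (95% interval -0.34 to 0.15) in LNCaP. A second probe of XRCC6 was called in neither line (0.17 in LNCaP, -0.31 in LNCaP-abl). XRCC5 fell by 0.61 (SE 0.10, adjusted p = 0.000382) in LNCaP-abl. In LNCaP it was called at -0.28 (adjusted p = 0.0453), a call lost without H2O replicate 3 (-0.185, adjusted p = 0.154), DMSO replicate 2 (adjusted p = 0.127), or dilazep replicate 1 (0.0512), 2 (0.0806) or 4 (0.162). That call was also lost with H2O arrays alone as control (-0.143, adjusted p = 0.4), with median scaling (-0.18, adjusted p = 0.253) and when adjusted over probes (0.0769). LIG4, the ligase of the pathway, was called in neither line (-0.06, 95% interval -0.43 to 0.32, and 0.26, -0.12 to 0.63).

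**Figure D4:**
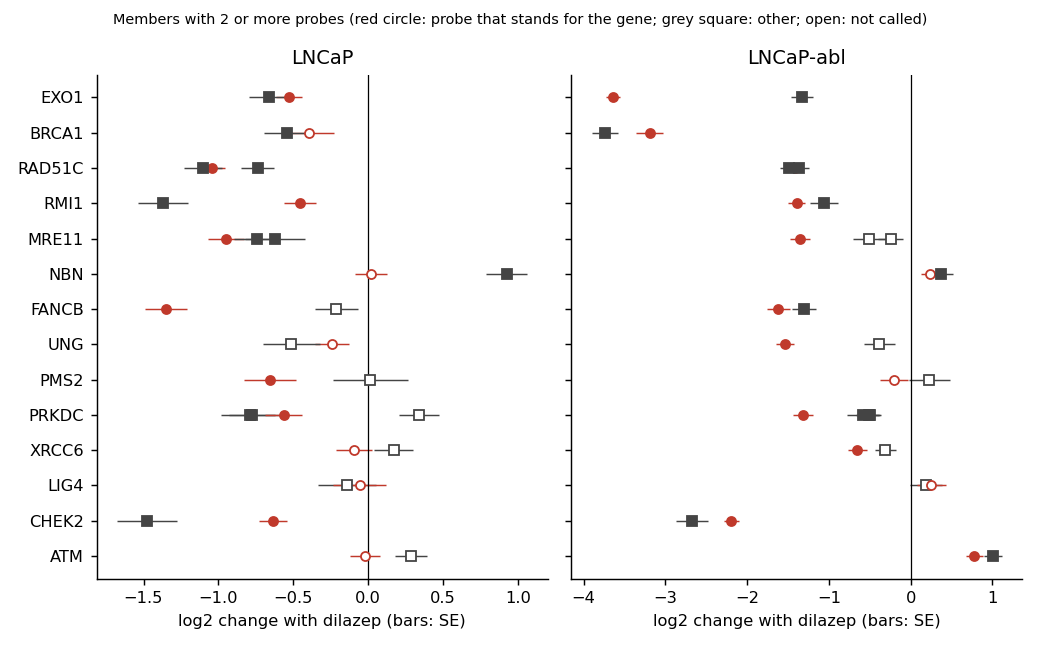
Log2 change with dilazep of each kept probe of the 14 members with more than 1 such probe, LNCaP left and LNCaP-abl right, on separate x scales, with the standard error as bars. The red circle is the brightest probe, which stands for the gene, grey squares are its other probes, and open marks were not called. Probes of BRCA1, RAD51C, CHEK2 and ATM were close in LNCaP-abl, while EXO1, MRE11, UNG and PRKDC had other probes with smaller changes.

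Among the checkpoint genes, 5 of 7 fell in LNCaP-abl (71.4%, against 23.3% of all genes) and ATM rose, with a median of -1.26. In LNCaP 4 fell (57.1%, against 19.7% of all genes) and ATR rose, with a median of -0.40. CHEK1 is the kinase that ATR activates. In LNCaP, CHEK1 measured 8.56 and 8.80 with H2O, 8.70 and 8.66 with DMSO, and 7.42, 7.46 and 7.22 with dilazep. In LNCaP-abl, CHEK1 measured 8.78 and 8.74 with H2O, 8.90 and 8.72 with DMSO, and 5.62, 5.30 and 5.69 with dilazep. Controls of both lines covered similar ranges, the dilazep arrays lay below them, and 2 of the 3 in LNCaP-abl were above background. CHEK1 fell by 3.25 (SE 0.11, adjusted p = 5.16e-10) in LNCaP-abl, a 9.51-fold fall, and by 1.31 (SE 0.11, adjusted p = 4.81e-06) in LNCaP, a difference of -1.94 (adjusted p = 4.56e-06).

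CHEK2, the kinase downstream of ATM, went from 9.10, 9.18, 9.01 and 9.08 in LNCaP controls to 8.42, 8.56 and 8.39. In LNCaP-abl CHEK2 went from 9.60, 9.58, 9.36 and 9.54 to 7.36, 7.32 and 7.30. It fell by 2.20 (SE 0.08, adjusted p = 7.85e-10) in LNCaP-abl and by 0.64 (SE 0.08, adjusted p = 8.13e-05) in LNCaP. The second probe fell further in both, by 2.67 and 1.48. CHEK2 too has near-identical copies in the genome, so part of its signal may be theirs.

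ATM and ATR, the kinases upstream of CHEK1 and CHEK2, were not called lower in either line. In LNCaP, ATM measured 8.54 and 8.65 with H2O, 8.94 and 8.79 with DMSO, and 8.86, 8.59 and 8.68 with dilazep. In LNCaP-abl, ATM measured 8.55 and 8.35 with H2O, 8.58 and 8.54 with DMSO, and 9.22, 9.32 and 9.31 with dilazep. ATM overlapped with its controls in LNCaP (-0.02, 95% interval -0.23 to 0.18) and was above all of them in LNCaP-abl. It rose there by 0.78 (SE 0.09, adjusted p = 2.3e-05), the second probe by 1.01, and the difference between the lines was 0.80 (SE 0.13, adjusted p = 0.000852).

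ATR lay near background. In LNCaP, ATR measured 5.10 and 5.01 with H2O, 5.36 and 4.80 with DMSO, and 5.33, 6.17 and 5.86 with dilazep. It was above background on 1 of those 4 control arrays and on all 3 dilazep arrays, and the groups overlapped by a small margin. In LNCaP-abl, ATR measured 5.30 and 5.68 with H2O, 5.09 and 5.37 with DMSO, and 5.03, 4.94 and 5.35 with dilazep. ATR was called at 0.72 (SE 0.20, adjusted p = 0.0123) in LNCaP, and this call was lost without dilazep replicate 2 (0.53, adjusted p = 0.0635). The change in LNCaP-abl was -0.25 (95% interval -0.69 to 0.19). The difference between the lines (-0.97, adjusted p = 0.0211) was lost without replicate 2 of the dilazep arrays of LNCaP (adjusted p = 0.0532) or of LNCaP-abl (adjusted p = 0.0523), with the processed values (-0.188, adjusted p = 0.0514) and with DMSO alone as control (adjusted p = 0.0987).

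TIMELESS and TIPIN form the complex that protects stalled replication forks, and TOPBP1 switches ATR on. TIPIN went from 8.47, 8.50, 8.40 and 8.52 in LNCaP controls to 7.85, 8.08 and 7.75. In LNCaP-abl TIPIN went from 9.05, 8.93, 9.18 and 8.81 to 7.22, 7.37 and 7.11. Groups were separate in both, and TIPIN fell by 1.76 (SE 0.12, adjusted p = 1.26e-07) in LNCaP-abl and by 0.58 (SE 0.12, adjusted p = 0.00164) in LNCaP. TIMELESS fell by 1.26 (adjusted p = 9.48e-07) and 0.40 (adjusted p = 0.00813), the latter call being lost with median scaling (-0.304, adjusted p = 0.0612). TOPBP1 fell by 1.20 (SE 0.10, adjusted p = 1.45e-06) in LNCaP-abl and changed by -0.20 (95% interval -0.43 to 0.03) in LNCaP.

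**Figure D5:**
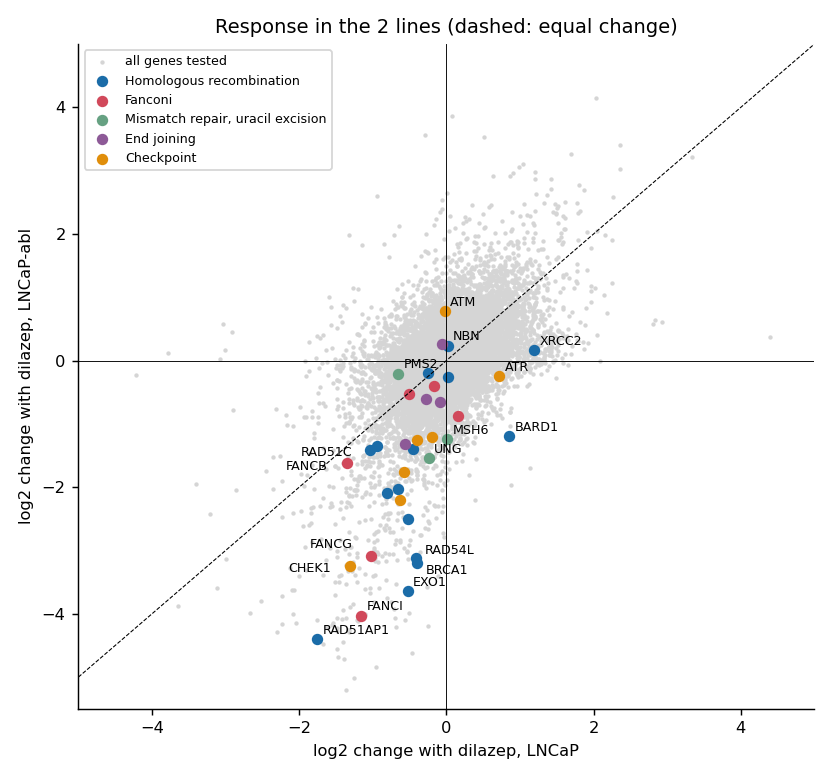
Log2 change with dilazep in LNCaP (x) against that in LNCaP-abl (y), 1 point per gene, with all 11983 genes in light grey and members coloured by pathway. The dashed line marks equal change in both lines. Most members lie below it, BARD1 lies at 0.86 and -1.19, and ATM lies above it at -0.02 and 0.78.

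In the control arrays, 13 members were higher in LNCaP-abl (25.1% of all genes were) and 6 were lower (23.9% of all genes), with a median difference of 0.15 among members and 0.00 over all genes. The higher members included BRCA1 (0.80, SE 0.15, adjusted p = 0.000865), FANCI (0.59, adjusted p = 0.00047), TIPIN (0.52), NBN (0.49), TOPBP1 (0.48) and CHEK2 (0.43), and the lower ones FANCF (-0.61, adjusted p = 0.000715) and LIG4 (-0.57). These counts were not stable: 8 members were higher without LNCaP DMSO replicate 3, and 3 were lower without LNCaP H2O replicate 3 or without LNCaP DMSO replicate 2. The shares of all genes without those arrays were not counted. Of the members' calls in controls, 15 were lost under at least 1 alternative, and those of BRCA1, FANCI, NBN and TIPIN were kept under all tried.

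Under dilazep 29 members were lower in LNCaP-abl than in LNCaP (28.8% of all genes were) and NBN and ATM were higher (25.8% of all genes), with a median of -0.74 among members and -0.03 over all genes. The comparison shares its arrays with the changes above. Every recombination gene but NBN and BRIP1 was lower. On the background-corrected scale RAD54L was at least 5.82-fold lower and EXO1 at least 4.66-fold lower. Without background correction the log2 difference was -1.27 for RAD54L and -1.25 for EXO1. With the processed values it was -0.857 for RAD54L and -0.8 for EXO1. The change of order was seen in BRCA1, which was higher in LNCaP-abl in controls and lower there with dilazep (-1.99, SE 0.17, adjusted p = 1.53e-06), and in FANCI (-2.29 with dilazep, adjusted p = 1.33e-08). NBN was higher in LNCaP-abl with dilazep as in controls, by 0.71 (adjusted p = 0.000139), and ATM was higher by 0.57 (adjusted p = 0.000419).

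Outside the members, 122 other repair and damage-signalling genes were listed and 109 of them tested. In LNCaP-abl 46 of the 109 fell (42.2%, against 23.3% of all genes) and 10 rose (9.17%, against 27.2%), with a median of -0.32. In LNCaP 32 fell (29.4%, against 19.7%) and 18 rose (16.5%, against 24.2%), with a median of -0.03. Mismatch and base excision genes had 13 of 22 lower (59.1%) and 1 higher in LNCaP-abl, and the other recombination and crosslink genes 17 of 35 lower (48.6%) and 4 higher. Nucleotide excision genes, which remove bulky lesions such as those from ultraviolet light, had 2 of 16 lower and 2 higher in LNCaP-abl (12.5% each, below the shares of all genes). In LNCaP they had 2 lower (12.5%) and 5 higher (31.2%, near the 24.2% of all genes). In LNCaP-abl the smallest p-values among genes that fell belonged to CDC25A, a phosphatase that CHEK1 targets (-3.02), RMI2, the partner of RMI1 (-3.06), and MDC1, a scaffold at breaks (-2.27). Among those that rose there were CETN2 (0.76) and XPC (0.50), which act in nucleotide excision. ERCC1 (0.70) rose too, and was counted here with the recombination and crosslink genes. In LNCaP the corresponding genes were UBE2T, which supplies ubiquitin to FANCL (-1.36), RPA3, a subunit of the protein that coats unpaired DNA (-1.27), and CDC25B (-1.04) among those that fell. ABRAXAS1, a member of a BRCA1 complex (1.76), XPA (0.64) and ERCC2 (0.91) rose there.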

How the data were processed

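Gene expression was measured on 14 Illumina BeadChip arrays in 6 groups. The table deposited by the authors holds, per the file headers, a linear intensity for each of 47422 listed probes on each array (47323 distinct) and a detection p-value beside each intensity. The authors also deposited processed log2 values of 22912 probes, for which lumi (no version) is named in the submitters' processing notes. Their exact normalization is not given in the sources used here, and they were used only in an alternative. Sample titles identified the columns. A line of running numbers in the header differs from the sample descriptions for the 4 LNCaP-abl control arrays; the accession line matched the titles for all 8 controls, and each of the 14 intensity columns was most alike in rank to the processed column of its own sample.

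Intensities were background corrected by normexp with negative controls inferred from the detection p-values, quantile normalised and log2 transformed (neqc, offset 16, limma 3.58.1, R 4.3.3). Probes with a detection p-value under 0.05 on at least 2 arrays were kept (24894), named from the platform annotation, and the brightest kept probe on average stood for its gene (11983 genes; 53 of the members' 55 probes were kept). All 14 arrays entered a linear model of group means, contrasts were tested two-sided with eBayes, and p-values were adjusted by Benjamini-Hochberg over all genes, or over all kept probes where a second probe is given. Adjusted p-values are from this limma model. The fit was tested on simulated data.

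The members and gene lists were chosen with earlier results of these data known. Values on every array are given for members that changed by 1.5 or more on the log2 scale in either line, for those called higher with dilazep, and for the member with the smallest adjusted p of each class. Other probes are named where their call or size differed. Where no dilazep array was above background, the fold is a bound: the brighter group's mean against the dimmer group's, in which each array counted at its lowest detected level if the gene lay below that. The bound applies to the background-corrected levels only. Whether replicate numbers pair the samples was not settled. The correlation of deviations from group means was -0.177 to 0.0544 over 8 same-numbered pairs, none over 0.1. Over 24 other pairs it was -0.177 to 0.177, with 2 over 0.1. In groups of 2 arrays the deviations mirror each other, so these values cannot decide whether the numbers pair. Chips and runs are not labelled, and no batch was fitted. The number of arrays limits precision; the median residual SD of the members was 0.148 log2. Alternatives were median scaling, no background correction, the authors' processed values, a stricter or no detection filter, the mean of a gene's probes, each probe alone, each vehicle alone as control, a replicate block, limma's trended variance and leaving out each array. Promoters came from RefSeq. Plotting used Python 3.11.15 with matplotlib 3.10.9.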

Additional observations from a re-analysis of the deposited data

Results flagged for a closer look

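A direct test of whether the lines responded differently, LNCaP-abl minus LNCaP on the log2 scale, passed for 25 of the 35 members (limma, Benjamini-Hochberg over all genes), and these differences call for a closer look. Among recombination genes the difference was -3.12 for EXO1, -2.79 for BRCA1, -2.69 for RAD54L, -2.65 for RAD51AP1, -2.05 for BARD1 and -1.98 for XRCC3. It was -1.38 for RAD54B, -1.28 for BLM, -1.02 for XRCC2, -0.936 for RMI1 and -0.375 for RAD51C. Among Fanconi genes it was -2.87 for FANCI, -2.06 for FANCG and -1.03 for FANCE. UNG differed by -1.30 and MSH6 by -1.25, PRKDC by -0.751 and XRCC6 by -0.557. Among checkpoint genes it was -1.94 for CHEK1, -1.56 for CHEK2, -1.18 for TIPIN, -1.0 for TOPBP1, -0.968 for ATR and -0.859 for TIMELESS, and 0.80 for ATM. Adjusted p ran from 2.59e-08 for EXO1 to 0.0282 for XRCC2. The differences share arrays with the changes in each line. For EXO1, RAD54L and BLM no LNCaP-abl dilazep array was above background, so their differences depend on values near the floor and their order against the other genes was not measured. Differences of other genes also moved by more than 1.5 times with the background treatment. Without background correction and with the authors' processed values, in that order, the difference was -1.75 and -1.38 for FANCI, -1.62 and -1.24 for BRCA1, -1.48 and -1.11 for RAD51AP1, -1.38 and -0.913 for EXO1, -1.14 and -0.751 for RAD54L, and -1.09 and -0.794 for XRCC3. It was -0.958 and -0.647 for FANCG, -0.857 and -0.582 for CHEK1, -0.663 and -0.46 for RAD54B, -0.64 and -0.368 for BLM, and -0.322 and -0.188 for ATR. With the processed values alone it was -1.36 for BARD1, -0.912 for CHEK2, -0.652 for TIPIN, -0.557 for FANCE and -0.499 for PRKDC. Median scaling gave -0.658 for RAD51C. Of these differences, that of ATR with the processed values lost its call (adjusted p = 0.0514). The mean of a gene's probes ended the calls of RMI1 (-0.311, adjusted p = 0.154) and PRKDC (-0.278, adjusted p = 0.0661) and gave -0.584 for UNG, and DMSO alone as control ended those of PRKDC (adjusted p = 0.0633) and XRCC6 (0.0656). Single arrays far from the rest were not sought by a test, since each group held 2 or 3 arrays.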

How the results depend on the processing

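The counts of members lower with dilazep ranged from 18 to 20 in LNCaP and 26 to 27 in LNCaP-abl when each array was left out in turn. With an array of the same line left out, 16.6% to 18.3% of all genes were lower in LNCaP and 21% to 22.1% in LNCaP-abl. In LNCaP-abl the 1 member called higher became 2 with no background correction, with the authors' processed values and with the mean of the kept probes. Of all genes, 27.6%, 26% and 26.9% were higher there, in that order. The median change was -1.47 with median scaling, -0.986 with no background correction and -0.752 with the processed values in LNCaP-abl, and -0.232 with the processed values in LNCaP. The median difference of the responses was -1.27, -0.701 and -0.557 under these 3 settings in that order, and that between the lines with dilazep -0.903, -0.459 and -0.388, where median scaling left 1 member higher. In controls, the 6 lower members became 3 with median scaling, 1 with H2O and 2 with DMSO as the control alone, and 3 to 6 when an array was left out. The 13 higher ones became 6 with H2O alone and 8 to 12 when an array was left out. For the comparisons between the lines, the shares of all genes under these settings were not counted. With the mean of the kept probes, RAD51C in controls (0.0405), and MRE11 (0.0656) and PRKDC (0.0349) with dilazep, changed sign between the lines and were not called. The cause of these shifts was not tested.

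Median scaling moved the median of all genes in LNCaP-abl by -0.126, and the share of higher calls from 53.9% to 37.8%. In LNCaP it moved them the other way, the median by 0.0506 and the share from 55.1% to 62.8%. The difference between the lines therefore depends in part on the scaling. Calls of 6 members in LNCaP (BARD1, FANCF, PMS2, XRCC5, ATR and TIMELESS) and of FANCL in LNCaP-abl were lost under at least 1 alternative. With a replicate block, 17 members were lower in LNCaP (15.2% of all genes were) and 27 in LNCaP-abl (23.4% of all genes). The block ended the calls of FANCF (-0.447, adjusted p = 0.0513) and XRCC5 (-0.182, adjusted p = 0.313) in LNCaP. It also ended that of the XRCC2 difference (-0.703, adjusted p = 0.0523), and BARD1 in LNCaP gave 0.52. With EXO1, RAD54L, BLM and FANCB set to their bounds and FANCF, which has none, to 0, an alternative chosen after seeing the data, the median in LNCaP-abl was -1.24. Signals near background limit EXO1, RAD54L, BLM, FANCB, FANCF, BRIP1 and ATR. The size of the falls of CHEK1, FANCG, RAD51AP1 and other members in LNCaP-abl also depended on the background treatment, as given above.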
